A study of Homo sapiens with 4 samples.

Results

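The human HOX genes are homeobox transcription factors that lie in 4 clusters, HOXA on chromosome 7, HOXB on chromosome 17, HOXC on chromosome 12 and HOXD on chromosome 2. All 39 of them were examined among the 58870 gene rows of the deposited tables, chosen by symbol alone (HOX, a cluster letter A to D, and the number of the paralogue group). RNA came from BJ cells, an established line of human foreskin fibroblasts. The cells of 2 libraries were given the solvent DMSO, and those of the other 2 were given Dox at 250 nM, a compound known here only by that abbreviation. The series design puts a treatment of 24 hours first and 10 days of senescence after it. The protocol text of the samples also allows a reading in which the treatment came last, and the order of the design is followed here. The titles call the DMSO cells young and the Dox cells aged. One cell line was used, and nothing in the labels says whether replicates were separate cultures, so that the p-values measure the spread between these libraries, which may be technical.

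Each HOX cluster is read in one direction, with group 1 at its 3′ end and group 13 at its 5′ end, and genes with the same number in different clusters are paralogues. In the embryo the order along the cluster matches the order of the expression domains along the body axis, and groups 9 to 13 mark the posterior trunk, the distal limb and the genital tubercle. Adult skin fibroblasts keep part of this pattern in culture, which is why HOX genes are used as a record of the body site that the cells came from.

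The libraries held between 42744729 and 47798920 expected counts. The 9 fibroblast markers examined, among them COL1A1, DCN and PDGFRA, were at 1 TPM or more in every library, whereas of 5 keratinocyte markers KRT5 and KRT1 had 0 counts throughout, KRT14 had 0 to 4 and CDH1 had 9 to 18. The fifth, KRT10, had 411 to 525 counts (5.53 to 8.64 TPM). Protein-coding genes held 10.4% and 10.8% of the TPM in the DMSO libraries, and 9.11% and 14.9% in the Dox libraries. TPM (a unit that corrects for gene length and gives each library one total) is therefore used here to compare HOX genes within a library, and change between groups is given from counts scaled by TMM, a method that fits a library size factor over most genes. Counts on that scale are given as CPM, relative to the size of the library. The Dox libraries also differed more from each other than the DMSO libraries did, with a chi-square per degree of freedom of 60.5 against 2.4, and the log2 ratio between them rose with the GC content of transcripts (Spearman's rho 0.59 across genes, against 0.0296 for the DMSO pair, genes not being independent replicates).

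Promoter sequence from RefSeq (GRCh38.p14) was at hand for 20 of the 39 genes. Of these, 5 are shown as examples of genes that fell, did not pass or had 0 counts. HOXC6, the only member that rose, had no window. HOXA13, HOXA11 and HOXD11 fell in Dox, HOXA9 lies beside the fallers of its cluster and did not pass the test, and HOXB1 had 0 counts in every library. The windows cover the 250 bases before each start (for HOXA13, the 235 that carry no annotated UTR), on the strand of the gene. They lie at chr7:27200107-27200341 (HOXA13, minus strand), chr7:27185233-27185482 (HOXA11, minus), chr7:27165538-27165787 (HOXA9, minus), chr2:176107030-176107279 (HOXD11, plus) and chr17:48531012-48531261 (HOXB1, minus). Capitals mark matches, on either strand, to the TATA box letters TATAAA, to the CCAAT box, to the GC box letters GGGCGG or to the E-box CACGTG.
HOXA13 promoter: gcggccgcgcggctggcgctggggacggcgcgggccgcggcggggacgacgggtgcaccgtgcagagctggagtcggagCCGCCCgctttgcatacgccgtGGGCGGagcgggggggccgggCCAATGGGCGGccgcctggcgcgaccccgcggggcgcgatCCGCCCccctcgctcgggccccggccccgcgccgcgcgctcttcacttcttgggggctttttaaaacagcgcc
HOXA11 promoter: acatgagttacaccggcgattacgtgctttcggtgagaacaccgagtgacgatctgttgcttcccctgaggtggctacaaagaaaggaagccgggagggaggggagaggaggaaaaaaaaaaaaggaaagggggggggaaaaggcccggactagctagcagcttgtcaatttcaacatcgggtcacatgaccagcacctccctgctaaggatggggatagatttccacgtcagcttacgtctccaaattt
HOXA9 promoter: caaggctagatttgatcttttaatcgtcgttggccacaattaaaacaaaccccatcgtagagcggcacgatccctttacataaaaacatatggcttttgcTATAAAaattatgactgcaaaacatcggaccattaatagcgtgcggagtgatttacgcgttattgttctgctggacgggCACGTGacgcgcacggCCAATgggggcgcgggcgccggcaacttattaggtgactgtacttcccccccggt
HOXD11 promoter: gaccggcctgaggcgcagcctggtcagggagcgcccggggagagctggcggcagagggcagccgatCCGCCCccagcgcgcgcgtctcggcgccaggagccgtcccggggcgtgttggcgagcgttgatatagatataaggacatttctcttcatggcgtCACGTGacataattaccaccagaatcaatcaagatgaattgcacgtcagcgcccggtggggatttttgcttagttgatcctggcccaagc
HOXB1 promoter: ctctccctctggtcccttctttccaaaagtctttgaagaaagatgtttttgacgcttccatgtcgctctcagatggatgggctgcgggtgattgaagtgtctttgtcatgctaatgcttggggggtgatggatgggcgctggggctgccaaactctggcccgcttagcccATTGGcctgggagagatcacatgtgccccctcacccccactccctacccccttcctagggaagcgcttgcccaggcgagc

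These windows differed widely in base composition. The HOXA13 window was 79.1% GC with 40 CpG dinucleotides and held 4 matches to GGGCGG, while the HOXA11 window was 51.6% GC with 11 CpG and held no match to any of the 4 motifs. HOXA9 and HOXD11 each had a CACGTG, with 20 and 23 CpG. HOXB1 had 7 CpG and 1 CCAAT. Over the 27 HOX windows in the table (several genes have more than 1 start), CACGTG was found in 29.6% against 6.34% of all 35116 windows of this length, and CCAAT in 66.7% against 32.0%. GGGCGG was found in 48.1% against 42.6%, and TATAAA in 18.5% against 10.7%. The median number of CpG was 19 in HOX windows and 11 in all windows. The HOX genes with a window were mostly of HOXA and HOXD, with only HOXB1 from HOXB and only HOXC4 and HOXC5 from HOXC. A CACGTG stood in the window of a gene that fell and in that of a gene that did not pass, so these letters did not separate them, and a match is a description of sequence only.

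HOX expression in these cells lay mainly at the 5′ end of the HOXA cluster. HOXA10, HOXA11, HOXA13 and HOXA9 were the only members with at least 1 TPM in all 4 libraries. Another 20 members were low, and 15 stayed below 0.1 TPM in every library. HOXA genes held 72.9% and 73.1% of all HOX TPM in the DMSO libraries, and 70.9% and 73.5% in the Dox libraries. HOXD held 14.8% and 16.1% in DMSO and 12.3% in each Dox library, and HOXC held 10.7% and 9.41% in DMSO and 15.1% and 12.8% in Dox, so that HOXD was above HOXC in the DMSO libraries and below it in the Dox libraries. HOXB held 1.38% to 1.70%. Groups 9 to 13, of all clusters together, held 94.8% (Wilson 95% interval 94.2 to 95.3) and 95.5% (95 to 95.9) of HOX counts in the DMSO libraries. In the Dox libraries they held 92.9% (92.2 to 93.6) and 93.6% (92.9 to 94.2), and these intervals cover counting error only.

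**Figure D1:**
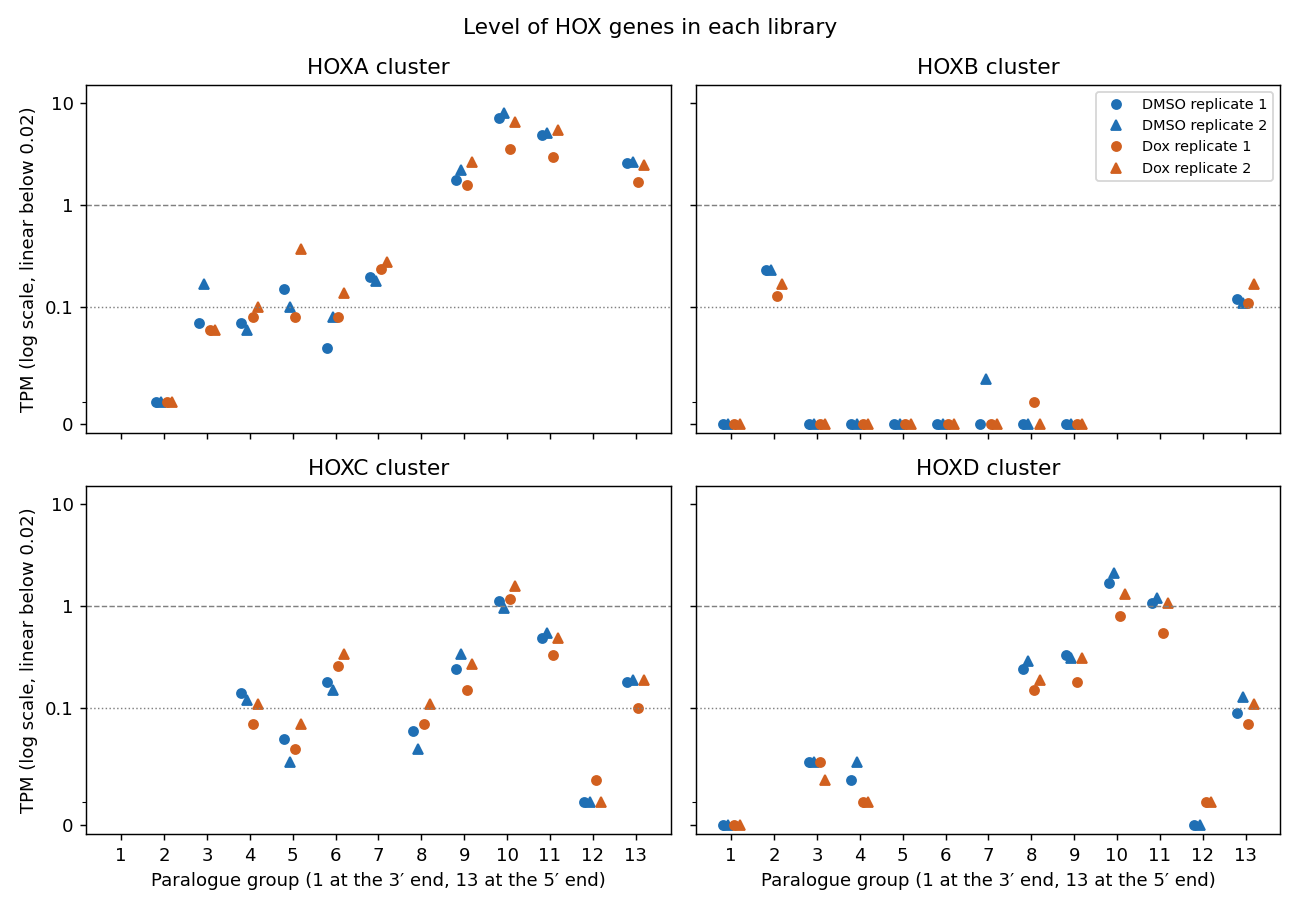
TPM of 38 of the 39 HOX genes (vertical axis, log scale that is linear below 0.02) against paralogue group (horizontal axis), one panel per cluster, with a point for each of the 4 libraries. The dashed line is 1 TPM and the dotted line 0.1 TPM, and the highest points are those of HOXA10, HOXA11, HOXA13 and HOXA9.

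HOXA10, which patterns the uterus and the lumbar skeleton, led the series at 7.10 and 8.01 TPM in the DMSO libraries and 3.55 and 6.58 TPM in the Dox libraries. It stood above 88.7% and 89.7% of the 19934 protein-coding genes in the DMSO libraries, and above 80.4% and 82.3% in the Dox libraries. HOXA11, needed for the forearm, had 4.81, 5.03, 2.97 and 5.38 TPM in the same order of libraries. HOXA13, needed for the digits and the genital tubercle, had 2.61, 2.66, 1.69 and 2.46 TPM. HOXA9 had 1.78, 2.21, 1.57 and 2.65 TPM. HOXA13 and HOXA9 overlapped over the libraries, and HOXA9 was the higher of the pair in the second Dox library. On a scale where protein-coding genes alone make up the total of each library (chosen after the data had been seen), HOXA10 stood at 68.1, 73.9, 39 and 44.1, and 16 rather than 4 members reached 1 in every library.

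Outside HOXA, the posterior genes of HOXD and HOXC came next. HOXD10 had 1.67, 2.09, 0.80 and 1.32 TPM and HOXD11 had 1.06, 1.20, 0.55 and 1.06 TPM, in DMSO 1, DMSO 2, Dox 1 and Dox 2. HOXC10 had 1.13, 0.96, 1.18 and 1.58 TPM. HOXD10 was above HOXD11 in every library, while HOXC10 was below HOXD10 in the DMSO libraries only. HOXC11 lay between 0.33 and 0.55 TPM and HOXD9 between 0.18 and 0.33 TPM. HOXD13, whose mutation causes synpolydactyly in people, lay between 0.07 and 0.13 TPM, below its paralogue HOXA13 in every library. Group 12 was all but silent, with HOXC12 at 4 to 8 counts and HOXD12 at 0 to 1.

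In the HOXB cluster only HOXB2, near the 3′ end, and HOXB13, at the 5′ end, held more than 3 counts. HOXB1, HOXB3, HOXB4 and HOXB5 had 0 counts in all 4 libraries, which allows up to 3 counts, or 0.0640 to 0.0719 CPM by library. HOXB6, HOXB7, HOXB8 and HOXB9 never passed 3 counts. HOXB2, at the 3′ side, had 46 and 50 counts in the DMSO libraries and 29 and 27 in the Dox libraries. HOXB13, which is far 5′ of the rest and is best known from prostate and hindgut, had 58 and 57 counts in the DMSO libraries and 60 and 65 in the Dox libraries.

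The 3′ genes of the other clusters were low but mostly not at 0. HOXA7 had 54, 55, 69 and 55 counts. HOXA2 had 1 to 4 counts, HOXD1 had 0 or 1, and HOXD3 and HOXD4 had 7 or fewer. In HOXC, HOXC6 had 49, 42, 78 and 74 counts after rounding, more than HOXC4, HOXC5 or HOXC8 in each library.

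Dox against DMSO was the comparison that the series design names. Of the 39 members, 25 had enough counts to be tested, and the other 14 included 12 with 5 counts or fewer in every library. Of the 25, 6 fell in Dox and 1 rose by edgeR's quasi-likelihood test at a Benjamini-Hochberg adjusted p below 0.05, and 18 did not pass. That is 24.0% lower and 4.0% higher, beside a background of 13.8% lower and 16.5% higher (30.3% in either direction) over all 16749 genes tested. The median log2 fold change of the 25 was -0.47, against -0.002 for all genes, with 16 below 0 and 9 above. Both Dox libraries lay below both DMSO libraries for 14 of the 25 (background 34.5%) and above them for 5 (background 34.6%). In RNA from whole cultures, fewer cells that express a gene and less RNA per cell cannot be told apart. On the deposited TPM, with limma on log2(TPM + 1), 0 members passed and 1 had an unadjusted p below 0.05.

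**Figure D2:**
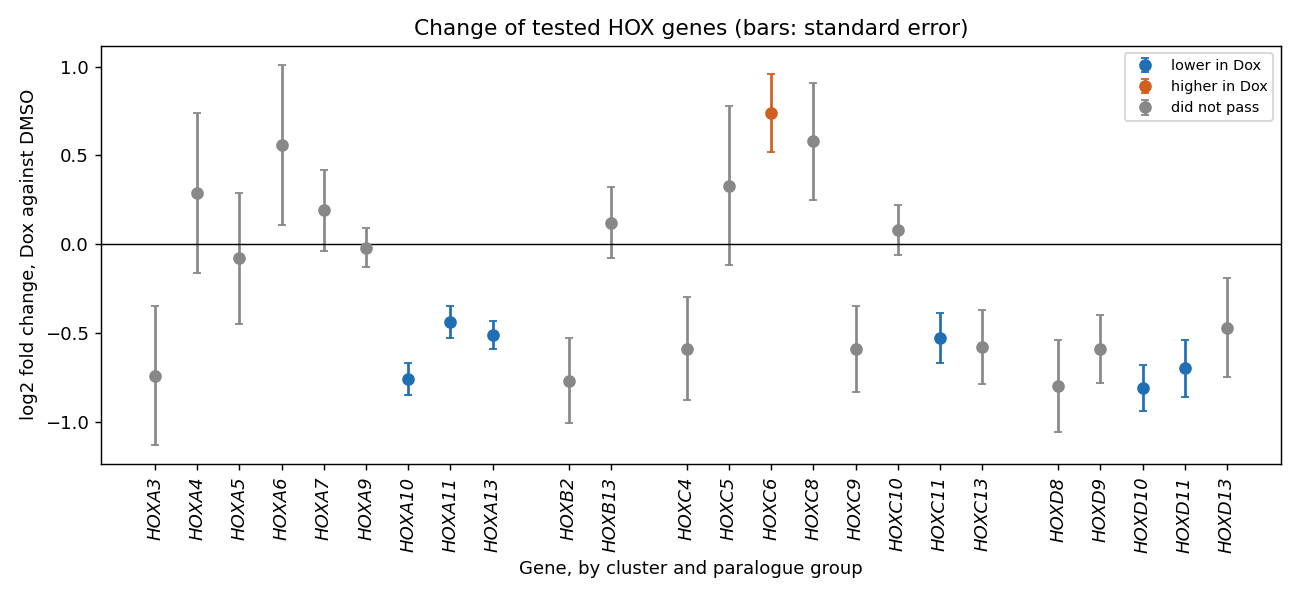
Log2 fold change of Dox against DMSO (vertical axis) with its standard error for 24 of the 25 tested HOX genes, ordered by cluster and then from group 1 to group 13. The 6 members that fell are HOXA10, HOXA11, HOXA13, HOXC11, HOXD10 and HOXD11, and HOXC6 is the one that rose.

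The 6 that fell belong to groups 10, 11 and 13. Of the 13 tested members of groups 9 to 13, 6 fell and 7 did not pass, with a median log2 fold change of -0.53. Of the 12 tested members of groups 1 to 8, 1 rose and 11 did not pass, with a median of 0.24. Over all genes tested, 13.8% were called lower and 16.5% higher. The 12 had a median of 23.5 counts against 207 for the 13, so the test could see smaller changes in the posterior set, and the difference between the sets was not tested. With either DMSO library left out fewer members passed, and fewer of all genes passed as well.

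HOXA10 had 40.0 and 43.0 CPM in the DMSO libraries and 23.5 and 25.6 CPM in the Dox libraries. The means were 41.5 ± 2.15 and 24.6 ± 1.53 CPM (SD, n = 2 each), a log2 fold change of -0.76 (SE 0.09) with an edgeR adjusted p of 0.00178. The groups did not overlap, and the fall was 1.69-fold.

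HOXA11 had 35.9 and 36.8 CPM in DMSO and 25.2 and 28.5 CPM in Dox. Its log2 fold change was -0.44 (SE 0.09, edgeR adjusted p = 0.0138), a fall of 1.35-fold. HOXA13 had 42.2 and 43.1 CPM in DMSO and 31.4 and 28.5 CPM in Dox. Its log2 fold change was -0.51 (SE 0.08, edgeR adjusted p = 0.00599), a fall of 1.42-fold. In both genes every Dox library was below every DMSO library. Without the first DMSO library the adjusted p of HOXA11 was 0.103 and that of HOXA13 0.0488, and without the second they were 0.152 and 0.0743.

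HOXA9, a gene of blood stem cells and of the trunk, had 8.55 and 9.83 CPM in DMSO and 8.96 and 9.17 CPM in Dox. The Dox libraries lay inside the DMSO range, and the log2 fold change was -0.02 (SE 0.11, edgeR adjusted p = 0.904). The ratio of HOXA10 to HOXA9 counts, which needs no scaling between libraries, was 4.68 and 4.37 in DMSO and 2.62 and 2.80 in Dox. This ratio was picked after the values had been seen, and 2 libraries against 2 cannot give an exact permutation p below 0.333. HOXA9 and HOXA10 overlap in the annotation (HOXA9 at chr7:27162435-27175180 and HOXA10 at chr7:27170591-27180261, GRCh38, both on the minus strand). Their expected counts were not whole in 2 libraries, both of them DMSO, and were whole in both Dox libraries. An alternative chosen after the data had been seen summed these 2 genes and further gene rows counted as sharing their reads. That unit had 2031 and 2482 counts in DMSO and 1387 and 1579 in Dox, with a log2 fold change of -0.60 (SE 0.08, edgeR adjusted p = 0.00364).

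In HOXD, 2 of 5 tested members fell, and all 5 had log2 fold changes below 0. Over all genes tested, 13.8% were called lower and the median log2 fold change was -0.002. HOXD10, a regulator of hindlimb motor neurons and limb skeleton, had 8.77 and 10.5 CPM in DMSO and 5.54 and 5.49 CPM in Dox. Its log2 fold change of -0.81 (SE 0.13, edgeR adjusted p = 0.00647) was the largest fall among the HOX genes that passed. HOXD11, which acts with HOXA11 in the forearm and kidney, had 4.10 and 4.52 CPM in DMSO and 2.41 and 2.89 CPM in Dox, with a log2 fold change of -0.70 (SE 0.16, edgeR adjusted p = 0.0225). Neither gene overlapped between the groups. They also share reads, and their sum of 537 and 705 counts in DMSO and 340 and 380 in Dox gave -0.77 (SE 0.12, edgeR adjusted p = 0.0046). HOXD11 had an adjusted p of 0.0532 without the first DMSO library and 0.145 without the second, and HOXD10 one of 0.0625 without the second.

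HOXD8 and HOXD9 lay in the same direction and did not pass. HOXD8 had 1.22 and 1.51 CPM in DMSO and 0.912 and 0.661 in Dox (log2 fold change -0.80, SE 0.26, edgeR adjusted p = 0.0607). HOXD9 had 1.96 and 1.79 CPM in DMSO and 1.19 and 1.30 in Dox (-0.59, SE 0.19, edgeR adjusted p = 0.0603). For HOXD13 the value was -0.47 with an SE of 0.28. Without the first and without the second Dox library, the log2 fold change of HOXD8 was -1.06 and -0.59. That of HOXD9 was -0.54 and -0.65.

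**Figure D3:**
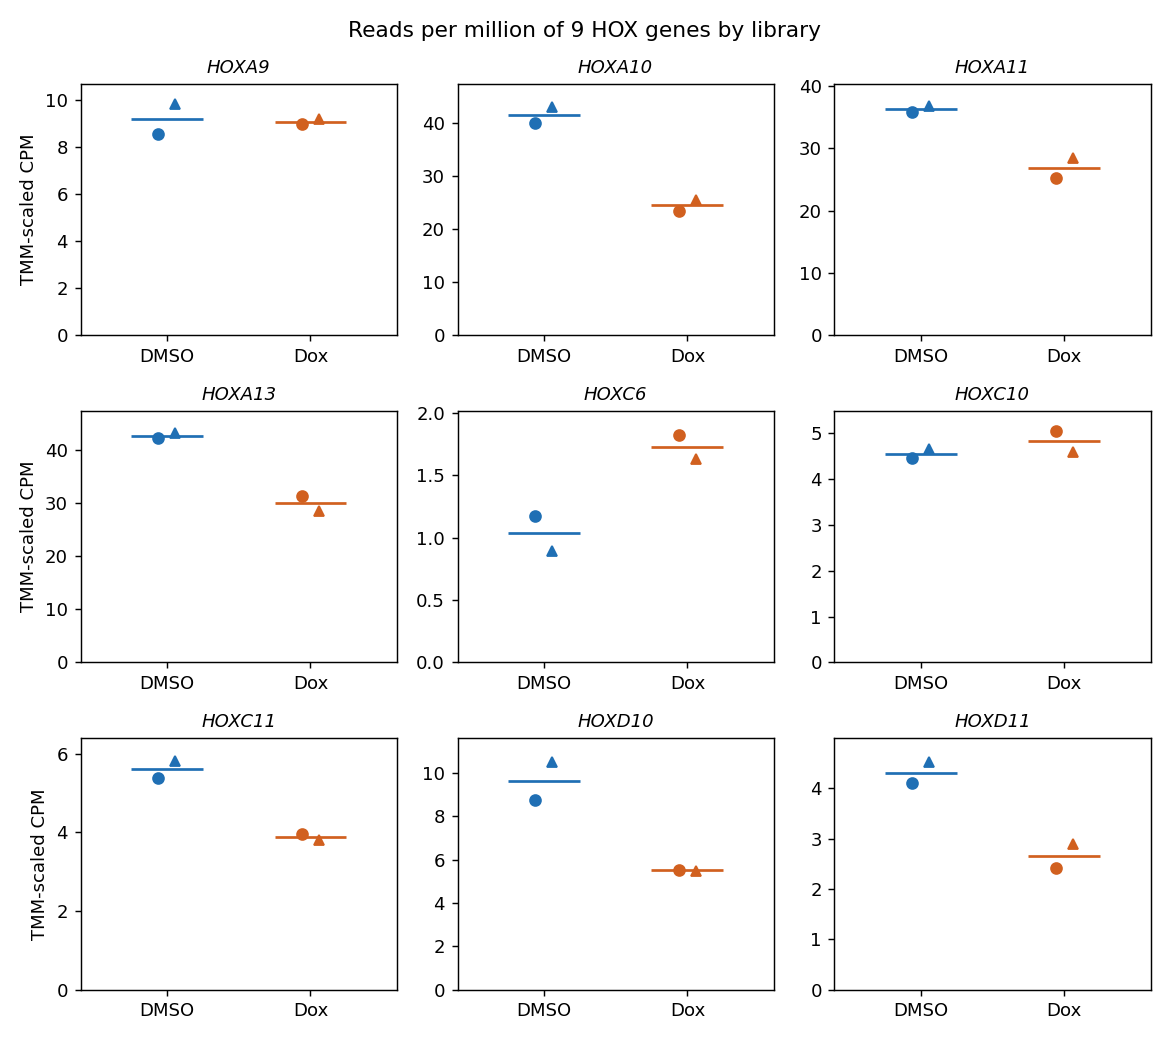
TMM-scaled CPM (vertical axes, each from 0) of 9 HOX genes in the DMSO and Dox libraries, with circles for replicate 1, triangles for replicate 2 and a line at the mean. HOXA10, HOXA11, HOXA13, HOXC11, HOXD10 and HOXD11 are lower in both Dox libraries, HOXC6 is higher in both, and HOXA9 and HOXC10 overlap.

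HOXC was mixed along its length. HOXC11 had 5.37 and 5.82 CPM in DMSO and 3.95 and 3.79 CPM in Dox, with a log2 fold change of -0.53 (SE 0.14, edgeR adjusted p = 0.0293). Its 3′ neighbour HOXC10, a hindlimb gene, had 4.46 and 4.65 CPM in DMSO and 5.05 and 4.59 CPM in Dox, and its log2 fold change was 0.08 (SE 0.14, edgeR adjusted p = 0.69). HOXC11 counts exceeded those of HOXC10 in the DMSO libraries, with ratios of 1.20 and 1.25, and fell short of them in the Dox libraries, with ratios of 0.782 and 0.827, a ratio again picked after the values had been seen. HOXC13, a gene of hair and nail differentiation, had 1.37 and 1.45 CPM in DMSO and 0.865 and 1.01 CPM in Dox (log2 fold change -0.58, SE 0.21, edgeR adjusted p = 0.0859). HOXC9 had a log2 fold change of -0.59 (SE 0.24, edgeR adjusted p = 0.112). HOXC11 had an adjusted p of 0.13 without the first DMSO library and 0.267 without the second, and did not pass in DESeq2. Without the first and without the second Dox library, the log2 fold change of HOXC13 was -0.49 and -0.70. That of HOXC9 was -0.48 and -0.75.

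HOXC6 was the one member that rose, from 1.17 and 0.896 CPM to 1.82 and 1.63 CPM, with a log2 fold change of 0.74 (SE 0.22, edgeR adjusted p = 0.0487). The groups did not overlap. HOXC4, HOXC5 and HOXC6 share exons, and their expected counts were not whole in any library. HOXC4 had 0.647 and 0.555 CPM in DMSO and 0.374 and 0.419 CPM in Dox (-0.59, SE 0.29, edgeR adjusted p = 0.175). The ratio of HOXC6 to HOXC4 counts, also picked after the values had been seen, was 1.81 and 1.57 in DMSO and 4.83 and 3.95 in Dox. This ratio depends on how shared reads were divided. A unit of these 3 genes and further gene rows counted as sharing their reads had 90 and 82 counts in DMSO and 116 and 117 in Dox. The unit did not pass (log2 fold change 0.44, SE 0.18, edgeR adjusted p = 0.116). The rise of HOXC6 is thus uncertain as the change of a single gene, and without either DMSO library it did not pass (adjusted p = 0.0761 and 0.333).

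The 2 tested members of HOXB did not pass. HOXB2, a hindbrain gene, had 1.10 and 1.07 CPM in DMSO and 0.678 and 0.595 CPM in Dox (log2 fold change -0.77, SE 0.24, edgeR adjusted p = 0.0537), without overlap. Its log2 fold change was -0.87 without the first Dox library and -0.68 without the second. HOXB13 gave 0.12 (SE 0.20, edgeR adjusted p = 0.668). Among the low 3′ genes, HOXC8 gave 0.58 (SE 0.33, edgeR adjusted p = 0.225). HOXA3, HOXA4, HOXA5, HOXA6, HOXA7 and HOXC5 lay between -0.74 and 0.56, and the SE of each was 0.23 to 0.45.

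The length that the deposited tables give for a gene is an average over its transcripts, weighted by abundance, and it differed in places. For HOXD10 it was 1666 and 1637 bases in DMSO and 1919 and 1839 bases in Dox, and for HOXA10 it was 1735 to 1827 bases without a split between groups. For HOXA5 it was 1670 bases in 3 libraries and 1007 bases in the second Dox library, where the TPM of HOXA5 was 0.37 against 0.08 to 0.15 elsewhere on 20 to 35 counts.

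The noncoding RNAs of the clusters were described from a list of 18, of which 8 were tested and 2 passed, both lower in Dox, a number near the background of 30.3% called in either direction. HOXC13-AS, transcribed against the 5′ end of HOXC, had 0.911 and 1.11 CPM in DMSO and 0.234 and 0.287 CPM in Dox, a fall of 3.85-fold (log2 fold change -1.95, SE 0.30, edgeR adjusted p = 0.0052). HOXA11-AS had 3.76 and 3.90 CPM in DMSO and 2.06 and 2.84 CPM in Dox (-0.64, SE 0.19, edgeR adjusted p = 0.0493). Whether counting used the strand is not given in the sources used here, so reads of HOXA11 and HOXA11-AS, or HOXC13 and HOXC13-AS, may not be separable. HOXA11 had 9.55 and 9.41 times the counts of HOXA11-AS in DMSO and 12.2 and 10.0 times in Dox, a ratio picked after the values had been seen. HOXA11-AS did not pass in DESeq2, nor without the first or the second DMSO library (adjusted p = 0.117 and 0.176).

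HOTAIR, a long noncoding RNA of HOXC between HOXC11 and HOXC12 and a known mark of posterior and distal skin, was the highest of the list by TPM, at 2.98, 2.99, 1.89 and 3.46. Its CPM was 16.8 and 16.3 in DMSO and 13 and 14.2 in Dox (log2 fold change -0.28, SE 0.09, edgeR adjusted p = 0.0639). The log2 fold change of HOTAIR was -0.23 without the first Dox library and -0.35 without the second. HOTAIRM1, at the 3′ end of HOXA, had 1.89 and 1.86 CPM in DMSO and 2.22 and 2.16 CPM in Dox and did not pass (adjusted p = 0.349). HOTTIP, at the 5′ end of HOXA beside HOXA13, was at 0.309 to 0.597 CPM. The median log2 fold change of the 8 tested was -0.40.

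HOX proteins bind DNA together with TALE homeodomain cofactors of the PBX, MEIS and PKNOX families. Of these 9 genes, 8 were tested and 2 passed, both lower in Dox, a number near the background of 30.3% called in either direction. MEIS1 had 108 and 109 CPM in DMSO and 77.9 and 80.1 CPM in Dox (log2 fold change -0.46, SE 0.07, edgeR adjusted p = 0.00493). MEIS2 had 34.3 and 33.9 CPM in DMSO and 23.2 in each Dox library (-0.56, SE 0.08, edgeR adjusted p = 0.00335). MEIS3, second to MEIS1 in mean TPM, gave -0.18 (SE 0.13). The median of the 8 was -0.20. MEIS1 did not pass without the first or the second DMSO library.

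Genes that flank the clusters were mostly not homeobox genes, and 8 of 14 were tested, with 30.3% of all genes called as background. LNPK, on the centromeric side of HOXD, went from 95.3 and 95.1 CPM in DMSO to 125 and 111 CPM in Dox (log2 fold change 0.31, SE 0.08, edgeR adjusted p = 0.0347) and was the only one to pass. CALCOCO1, near HOXC, gave -0.14 (SE 0.10), and HIBADH, near HOXA, gave 0.06 (SE 0.08). The median of the 8 was 0.15. LNPK did not pass without either DMSO library. The log2 fold change of CALCOCO1 was -0.03 without the first Dox library and -0.28 without the second, and that of HIBADH was -0.03 and 0.12. The homeobox gene EVX1, beside HOXA13, had 0 counts, and EVX2, beside HOXD13, was at 0 in 3 of 4 libraries.

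**Figure D4:**
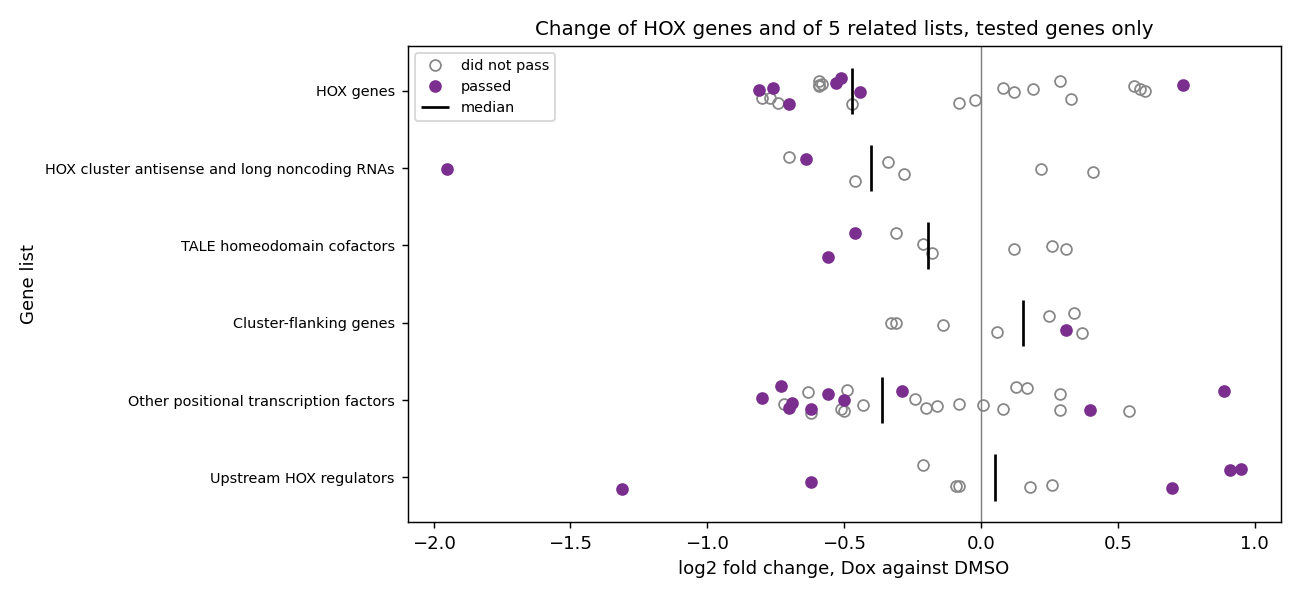
Log2 fold change of Dox against DMSO (horizontal axis) of each tested gene of the HOX set and of 5 related lists, one row per list with vertical scatter for legibility only. Filled points passed the test, open points did not, and black lines mark the medians, which run from -0.47 (HOX genes) to 0.15 (flanking genes).

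Other transcription factors that mark body position were described from a list of 36, of which 28 were tested. Of these 8 fell, 2 rose and 18 did not pass, beside 13.8% lower and 16.5% higher (30.3% in either direction) over all genes tested. The median log2 fold change was -0.36, against -0.002 over all genes. TBX15, a regulator of trunk skin and limb girdle, had 14.4 and 14.9 CPM in DMSO and 9.05 and 8.99 CPM in Dox (-0.70, SE 0.09, edgeR adjusted p = 0.003). Also among those that fell were TWIST1, SHOX2, FOXF2, IRX5, IRX3 and TBX5, a factor of the forelimb field.

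FOXF1, a factor of visceral mesenchyme, rose from 3.59 and 4.24 CPM to 6.97 and 7.61 CPM (log2 fold change 0.89, SE 0.14, edgeR adjusted p = 0.00608), and PRRX1, a limb mesenchyme factor, rose from 83.1 and 77.0 CPM to 113 and 97.7 CPM (0.40, SE 0.10, edgeR adjusted p = 0.0249). TBX3 and TWIST2, the highest of the list by mean TPM, gave -0.08 (SE 0.07) and 0.13 (SE 0.11) and did not pass. PRRX1 did not pass without either DMSO library.

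Genes known to act on HOX transcription were mixed, with 3 higher, 2 lower and 5 that did not pass among 10 tested of 12, beside a background of 16.5% higher and 13.8% lower. The retinoic acid receptor gene RARB fell from 10.8 and 9.45 CPM to 4.07 and 4.08 CPM (log2 fold change -1.31, SE 0.13, edgeR adjusted p = 0.000991), and RARA fell from 17.3 and 19.3 CPM to 10.8 and 13 CPM (-0.62, SE 0.12, edgeR adjusted p = 0.0115). KDM6B, which encodes a demethylase of the repressive mark H3K27me3, rose from 6.69 and 6.21 CPM to 11.9 and 12.2 CPM (0.91, SE 0.10, edgeR adjusted p = 0.00176). GDF11, a ligand that sets posterior HOX domains in the embryo, gave 0.95 (SE 0.11, edgeR adjusted p = 0.0021). KMT2A, a histone methyltransferase that maintains HOX expression, gave 0.70 (SE 0.09, edgeR adjusted p = 0.00242). RARG, the highest by mean TPM though below KMT2A in the first Dox library, gave -0.21 (SE 0.10), and CDX2 and CDX4 had 0 counts. RARA did not pass without the second DMSO library.

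Some markers of cell types moved between the groups as well, beside 16.5% higher and 13.8% lower (30.3% in either direction) over all genes tested. Of the fibroblast markers, LUM, DCN, VIM and THY1 rose and PDGFRA, PDGFRB and COL3A1 fell. PDGFRB went from 470.0 and 462 CPM in DMSO to 203 and 247 CPM in Dox. All 4 smooth muscle and pericyte markers passed, with MYH11, DES and RGS5 lower and NOTCH3 higher, and their summed TPM was 2.47 and 2.83 in DMSO and 2.22 and 4.75 in Dox. MYH11 fell from 9.46 and 9.83 CPM to 0.631 and 0.882 CPM. The leukocyte gene PTPRC rose from 9 and 11 counts to 90 and 83 counts, while CD3E had 0 counts and the 4 leukocyte markers together had 0.06 to 0.43 TPM. Melanocyte and endothelial markers summed to 0.10 TPM or less in each library. The part of these markers in the HOX changes was not tested.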

How the data were processed

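Expected counts are the authors' estimates of reads per gene, per the file headers, and many are fractional. Levels within a library were read from the TPM that the authors deposited. The deposited FPKM were left aside. Per the submitters' processing notes, reads went through cutadapt, STAR, Picard and RSEM with hg38. Versions, annotation release and strand setting: not given in the sources used here. Gene identifiers were matched to GENCODE 29 (GRCh38), which gave coordinates.

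Expected counts were rounded. Genes were kept by filterByExpr (minimum count 10, minimum total 15), scaled by TMM and tested with edgeR 4.0.16's quasi-likelihood test with group as the only term, in R 4.3.3. Adjusted p-values are Benjamini-Hochberg values over all 16749 genes tested, with a threshold of 0.05, and a standard error is the size of the log2 fold change over the square root of F. The fit was run on simulated counts that gave both groups the same spread between libraries, unlike the DMSO and Dox pairs here. A gene was called expressed at 1 TPM in every library and silent below 0.1 TPM in every library. Every HOX gene was described, and of each related list the 2 genes with the smallest adjusted p in each direction among those that passed and the 2 with the highest mean TPM were named. Any other gene was picked with its values in view. The values of some genes that this rule names are not reported here. The members and lists were chosen with earlier results of these data known. Alternatives used DESeq2 1.42.0, limma 3.58.1 on log2(TPM + 1) and log2(TPM + 0.1), offsets for trends with GC content, other scalings and filters, a replicate block and each library left out. Summing genes that share reads and rescaling TPM to protein-coding genes were added after seeing the data.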

Additional observations from a re-analysis of the deposited data

How the results depend on the processing

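HOXA10 passed under every count-based setting that kept all libraries and tested it by itself. Its log2 fold change lay between -0.82 and -0.54, with the limma fits and the fits with 1 library left out included. The number of HOX genes that fell (6) was 9 without the filter on low counts, 9 with GC offsets, 5 in DESeq2 and 0 in limma on log2(TPM + 1) and on log2(TPM + 0.1), where 1 and 0 members had an unadjusted p under 0.05 against 12 in edgeR. That number moved with 1 library left out, as did the number over all genes. Over all genes, 2309 were called lower, against 198 in each limma fit, 3058 without the filter and 3814 with GC offsets. The number that rose (1) was 0 in DESeq2, in both limma fits and with shared reads summed, and it did not hold with either DMSO library left out. The median over all genes moved to 0.12 without the filter and 0.13 with log2(TPM + 0.1), where the HOX medians were -0.50 and -0.24.

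With 1 library left out, the lone library of a group is assumed to vary like the pair of the other group, and the DMSO pair varied less than the Dox pair. Over all genes, more passed without a Dox library than with all libraries kept, and fewer passed without a DMSO library. Passing or not passing in these fits is therefore not a result about single genes.

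No pairing by replicate number is stated, and deviations of same-numbered libraries correlated at 0.0383 over genes. With the replicate block 7 HOX genes fell (HOXD8 added) and 1 rose, 3 flanking genes rose and 1 fell, and 4 other positional factors rose.

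For the related lists, counts with 1 library left out were 0 to 1 higher and 1 to 3 lower for noncoding RNAs, 0 to 2 and 1 to 5 for TALE cofactors, 0 to 5 and 0 to 3 for flanking genes, 1 to 5 and 2 to 15 for other positional factors, and 1 to 4 lower for upstream regulators. DESeq2 and limma on log2(TPM + 1) each called 1 noncoding RNA lower. Without the filter, 4 TALE cofactors fell, and 3 flanking genes rose and 2 fell. With GC offsets, 1 TALE cofactor rose and 4 fell, 3 flanking genes rose and 2 fell, and 4 other positional factors rose. In both limma fits the counts were 0 for TALE cofactors lower, flanking genes higher, other positional factors in each direction and upstream regulators lower, and upstream regulators higher were 1 with log2(TPM + 1) and 0 with log2(TPM + 0.1).

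Small changes that had not passed turned sign. With 1 library left out in turn, the log2 fold change ran from -0.13 to 0.83 for HOXA4, -0.49 to 0.27 for HOXA5, -0.03 to 0.39 for HOXA7, -0.13 to 0.08 for HOXA9, -0.09 to 0.84 for HOXC5, -0.004 to 0.15 for HOXC10, -0.03 to 0.12 for HIBADH and -0.03 to 0.26 for TWIST2. In limma on log2(TPM + 1) and log2(TPM + 0.1), HOXA5 was 0.11 and 0.38, HOXA9 0.04 in each and TBX3 0.06 in each. The causes were not tested.

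With 0.5 TPM as the bound 7 HOX genes were expressed, with 5 TPM 0, on the protein-coding scale 16, and with 1 library left out 4 to 6. Mean summed TPM in DMSO and Dox was 17.7 and 14.3 for HOXA, 0.355 and 0.295 for HOXB, 2.44 and 2.70 for HOXC, and 3.76 and 2.42 for HOXD. Without RN7SL1 and RN7SL2 the means were 31.6 and 23.5, 0.632 and 0.481, 4.34 and 4.40, and 6.70 and 3.97. On the protein-coding scale they were 167 and 118, 3.34 and 2.51, 22.9 and 22.8, and 35.3 and 20. The mean of HOXC was thus higher in Dox on the deposited scale and level on this one. On the deposited scale the first Dox library nevertheless lay below both DMSO libraries for HOXC, and only the second lay above them. By summed CPM, HOXC was lower in each Dox library than in either DMSO library. Members below 10 counts cannot show changes of the size seen in HOXA10.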
